A study of Saccharomyces cerevisiae with 14 samples.

Results

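The mitochondrial ribosomal protein genes of budding yeast were taken as the gene symbols made of MRPL, MRPS, MRP or RSM followed by a number, and 66 of the 5886 genes in the expression table fitted this rule. Of these, 34 were MRPL genes, 9 MRPS genes, 11 RSM genes and 12 MRP genes. Sorted by the protein they encode, 37 were counted with the large subunit and 28 with the small subunit of the mitochondrial ribosome. MRP8 encodes a protein that is in neither subunit and carries the name only for historical reasons. Counterparts in the bacterial ribosome are known for 40 of the proteins, and 24 are specific to mitochondria. MRP8 and RSM22, a methyltransferase-like protein counted with the small subunit, were placed in neither class. The genes lay on 14 chromosomes.

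RNA had been sequenced from log-phase cultures in YPD, a rich glucose medium, of 4 mutants and a wild type (WT), all in the haploid BY4741 background with its auxotrophic alleles his3Δ1, leu2Δ0, met15Δ0 and ura3Δ0. MSB3Δ lacked a GTPase-activating protein of Rab GTPases, NIT3Δ a member of the nitrilase superfamily and HSP26Δ a small heat shock protein. Each gene was replaced by a marker cassette. The paper describes the enzymatic function of NIT3 as unknown. TYS1 DAmP carried a KanR cassette just behind the essential gene for the cytosolic tyrosyl-tRNA synthetase, which lowers its transcript. Each mutant had 3 libraries and WT had 2, 14 in all, although the series record describes 3 per group, and every mutant was compared with the same 2 WT libraries. Values were FPKM, which are fragment counts scaled by transcript length and by the size of the library.

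The mitochondrial ribosome translates the few messages of mitochondrial DNA, which in yeast encode membrane subunits of the respiratory chain and the ATP synthase together with 1 ribosomal protein. Nearly all of its own proteins are encoded in the nucleus, made by cytosolic ribosomes and imported. In budding yeast their messages are the best known targets of Puf3, an RNA-binding protein that recognises a short element behind the stop codon, by which the messages can be held near mitochondria or handed to decay, depending on the carbon source. Yeast growing on glucose ferments and relies little on respiration.

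The genes shared one sequence feature that the naming rule did not use. The Puf3 element, written as DNA TGTANATA with N for any base, lay within 200 bases behind the stop codon on the strand of the gene in 64 of the 66 members (97.0%), against 839 of 5877 genes in all (14.3%) and 13.3% of the genes that are not members. On the opposite strand it was found in 19.7% of members and 13.3% of all genes. The 2 members without a match were MRP8, the gene outside both subunits, and RSM22, the methyltransferase-like protein counted with the small subunit. The following windows are shown because their genes carry the comparisons described further on. They are 28 or 30 bases long, taken from the R64 reference and written 5′ to 3′ on the strand of the gene, with the element in capitals.

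MRPL39, chrXIII:251207-251236, minus strand: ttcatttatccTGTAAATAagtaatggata

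RSM19, chrXIV:695024-695051, minus strand: gggatctagTGTATATAgatttctagat

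RSM19, chrXIV:694996-695025, minus strand: atgatatatcaTGTAAATAagatcaagcca

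MRP4, chrVIII:100429-100458, plus strand: taacctaaactTGTACATAtgcccatatat

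MRPL40, chrXVI:224133-224162, plus strand: tatattcgaccTGTATATAtgaaagcataa

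MRPS9, chrII:536224-536253, plus strand: ttcgttattccTGTAAATAaagttatatgt

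MRPL15, chrXII:760291-760320, plus strand: aaaaatttatcTGTAAATAgtgatcgaaat

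MRPL50, chrXIV:669719-669748, minus strand: gcgtacaatctTGTATATAggcaacatcgc

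MRP20, chrIV:1278499-1278528, plus strand: cccctcacactTGTATATAcggagcaaact

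MRPL24, chrXIII:650856-650885, plus strand: tggttttccccTGTATATAaaaaagcatat

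MRPL3, chrXIII:323054-323083, plus strand: gtttgccatttTGTAGATAgagaactcctt

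The windows hold all 4 forms of the element, TGTAAATA in MRPL39, TGTACATA in MRP4, TGTATATA in MRP20 and TGTAGATA in MRPL3. A cytosine 2 bases before the element, a position at which Puf3 is known to prefer that base, was present at 1 or more elements in 51 of the 64 members with a match (79.7%) and in 26.1% of the other genes with a match. It stands in the windows of MRPL39, MRP4, MRPL40, MRPS9, MRPL50, MRP20 and MRPL24 and in the second window of RSM19, and is missing from those of MRPL15 and MRPL3. Another element of MRPL3, TGTACATA at 53 bases behind the stop codon, has the cytosine but is not among the windows shown. The first element began at a median of 51 bases behind the stop codon in members, with the middle part of the genes between 33 and 73.25 bases, and at 58 bases over all genes with a match. In 13 members the window held 2 or more elements, and RSM19, with 3, had the most among the genes whose windows are shown. With a window of 100 bases 89.4% of members and 10.3% of all genes had a match, and with 300 bases the shares were 97.0% and 16.4%. A match is a description of the letters and was not tested as a binding site.

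Most other genes of mitochondrial translation carried the element too. All 13 mitochondrial ribosomal proteins whose names fall outside the rule had it, as did all 13 mitochondrial aminoacyl-tRNA synthetases, which charge the organelle's tRNAs, and 7 of 8 translation factors. The share was lower, 7 of 9 (77.8%), in ribosome assembly and rRNA modification genes and 12 of 16 in translational activators, which serve single mitochondrial messages. It was 11.4% of 35 subunits of oxidative phosphorylation, 11.7% of 60 ribosome biogenesis genes and 4.41% of 136 cytosolic ribosomal proteins.

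**Figure D1:**
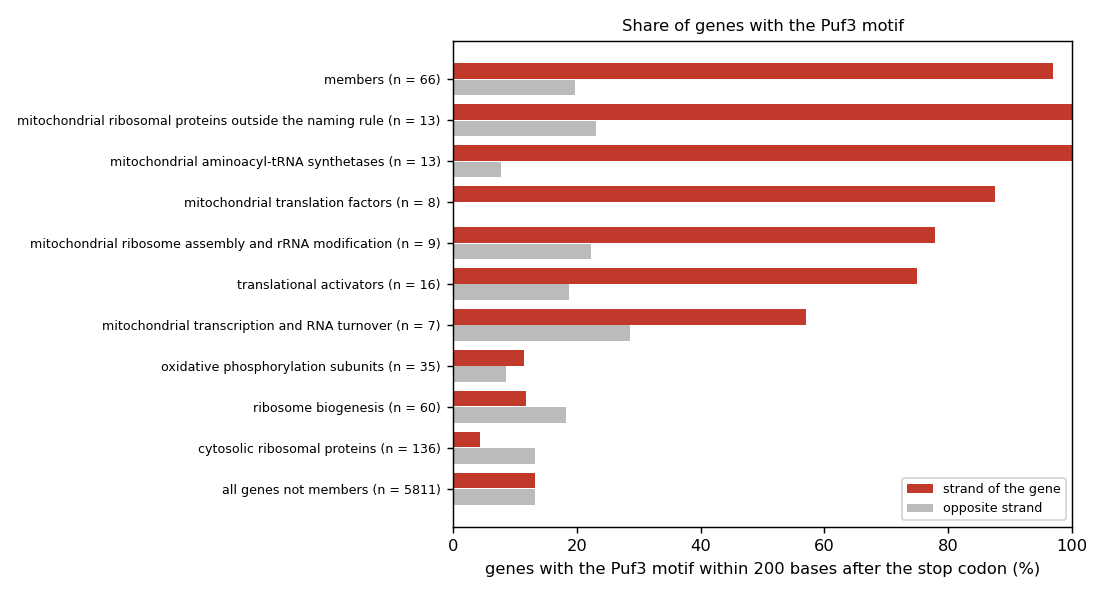
Horizontal bars give the percentage of genes in each group with the Puf3 element within 200 bases behind the stop codon, on the strand of the gene (red) and on the opposite strand (grey), with the number of genes in brackets. The bar of the 66 members reaches 97.0%, that of the assembly and rRNA modification genes 77.8%, while oxidative phosphorylation subunits reach 11.4%.

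The promoters held none of 4 known motifs more often than those of all genes. In the 300 bases before the start codon, searched on both strands, AAAAATTTT, the core of the rRNA processing element RRPE, was present in 3.03% of members, 7.45% of all genes and 39 of 60 ribosome biogenesis genes. GATGAG, the core of the PAC element, was present in 18.2% of members, 19.0% of all genes and 93.3% of ribosome biogenesis genes. CCAAT, the sequence bound by the Hap complex that controls respiratory genes, was present in 36.4% of members, 42.0% of all genes and 88.6% of oxidative phosphorylation subunits. AGGGG, the stress response element, was present in 12.1% of members and 22.2% of all genes.

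Members were moderately abundant and rather even. Their mean over the 14 libraries had a median of 132 FPKM, against 50.1 FPKM for the 5727 genes tested, those averaging 1 FPKM or more, which placed the median member at percentile 74.2 of these genes. Of the 66, 61 lay between 50 and 500 FPKM, and the 75th percentile of the members was 2.07 times their 25th. Cytosolic ribosomal proteins had a median of 4693 FPKM. FPKM is a level per transcript length, yet shorter members had higher values, with a rank correlation between level and coding length of -0.77 over the 66 genes, which share the same libraries. The coding length of members had a median of 706.5 bases, against 1212 bases over all genes.

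The highest member was MRPL39, which encodes bL33, a small protein of the large subunit on chromosome XIII (R64 chrXIII:251304-251516, 1 exon, 213 coding bases). It read 1117 and 902 FPKM in WT, 2065, 1222 and 751 FPKM in MSB3Δ, 824, 1485 and 1348 FPKM in NIT3Δ, 451, 1031 and 691 FPKM in HSP26Δ and 918, 755 and 752 FPKM in TYS1 DAmP. One MSB3Δ library was high and one HSP26Δ library low, and every mutant overlapped with WT. MRP8 and RSM19, the small-subunit protein uS19, came next. The lowest members were MRPL7 (uL5), MRPL40 (uL24) and RSM22. RSM22 read 17.4 and 20.5 FPKM in WT, 23.7, 19.5 and 20.6 FPKM in MSB3Δ, 25.5, 26.5 and 21.8 FPKM in NIT3Δ, 22.1, 19.9 and 15.2 FPKM in HSP26Δ and 27.1, 16.9 and 17.3 FPKM in TYS1 DAmP, so the NIT3Δ libraries were above WT and the other strains overlapped with it.

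Between the libraries, the members moved within a narrow band above the median gene. The median member read 118 and 133 FPKM in WT, 205, 145 and 109 FPKM in MSB3Δ, 126, 192 and 140.2 FPKM in NIT3Δ, 91.4, 119.8 and 93.6 FPKM in HSP26Δ and 169, 106 and 104 FPKM in TYS1 DAmP. Because the median of all genes moved too, each library was set to its own median gene on the log2(FPKM + 1) scale. The median member then stood 1.41 and 1.58 above the median gene in WT and 0.89, 1.32 and 1.01 above it in HSP26Δ. The distances were 1.69, 1.14 and 1.304 in TYS1 DAmP, 1.79, 1.58 and 1.25 in MSB3Δ, and 1.31, 1.54 and 1.56 in NIT3Δ. All 3 HSP26Δ libraries were below both WT libraries, and the other strains had libraries on both sides or between them.

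The means of these library values were 1.49 ± 0.11 (SD, n = 2) in WT, 1.07 ± 0.22 (SD, n = 3) in HSP26Δ, 1.38 ± 0.29 in TYS1 DAmP, 1.54 ± 0.27 in MSB3Δ and 1.47 ± 0.14 in NIT3Δ, each mutant with n = 3. In order, MSB3Δ, WT, NIT3Δ and TYS1 DAmP did not differ beyond their spread, and HSP26Δ came last, with its highest library (1.32) above the lowest library of each other mutant. The strain means spanned 0.47, while the libraries of a single strain spanned up to 0.56, in TYS1 DAmP. FPKM values are relative to the whole library, so more message of the members and less of other RNA cannot be told apart here. Members together took between 0.516% and 1.23% of the summed FPKM.

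**Figure D2:**
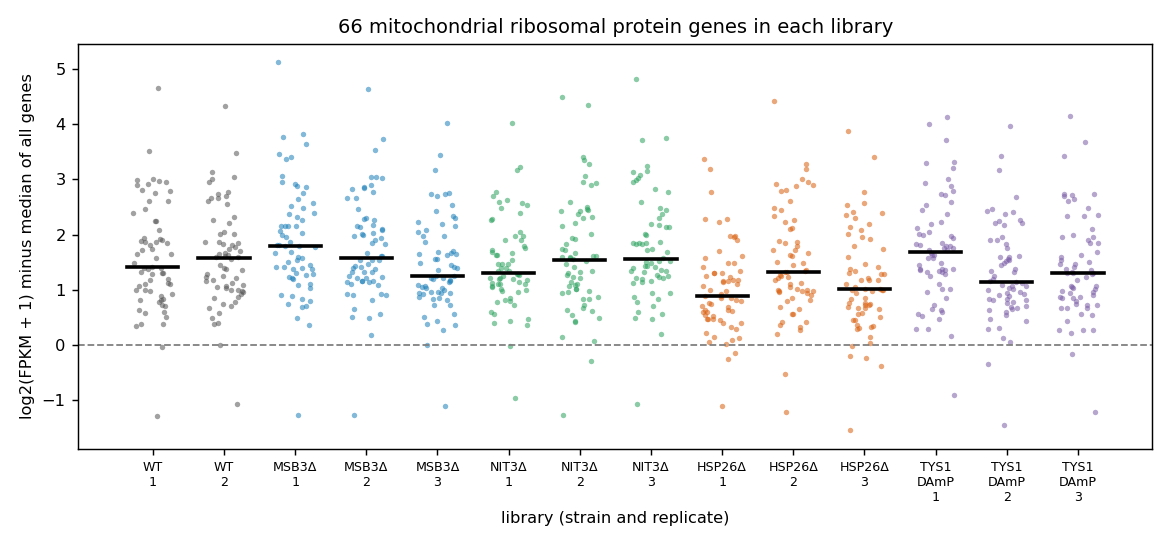
Each point is 1 of the 66 genes in 1 library, as log2(FPKM + 1) minus the median of all genes in that library (dashed line at 0), with black bars for the median of the members. The bars lie between 0.89 and 1.79, with all 3 HSP26Δ libraries below both WT libraries.

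Over the 14 libraries the members did not follow the cytosolic ribosome, although both were lower in HSP26Δ than in WT. The median of the 136 cytosolic ribosomal proteins ranged over 2.41 on the log2 scale, from 4.63 above the median gene in NIT3Δ replicate 2 to 7.03 in WT replicate 1, whereas the median member ranged over 0.90. In NIT3Δ replicate 2, where the cytosolic proteins were lowest, the median member was at 1.54, between both WT libraries. The correlation of the 2 medians over the 14 libraries was -0.25. In HSP26Δ, however, the cytosolic medians of 6.38, 6.71 and 6.49 were all below WT, at 7.03 and 6.97. There the median log2 fold change minus that of all genes was -0.38 in members and -0.39 in cytosolic proteins. In MSB3Δ, NIT3Δ and TYS1 DAmP it was 0.13, 0.03 and -0.08 in members and -0.57, -1.03 and -0.29 in cytosolic proteins. The 13 mitochondrial ribosomal proteins outside the naming rule tracked the members at r = 0.95 and oxidative phosphorylation subunits at r = 0.55, again over 14 libraries that contribute to both sides of each correlation and fall into 5 strains. The subunits moved together, with r = 0.92 between the large and small subunit medians and 0.91 between proteins with and without a bacterial counterpart.

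**Figure D3:**
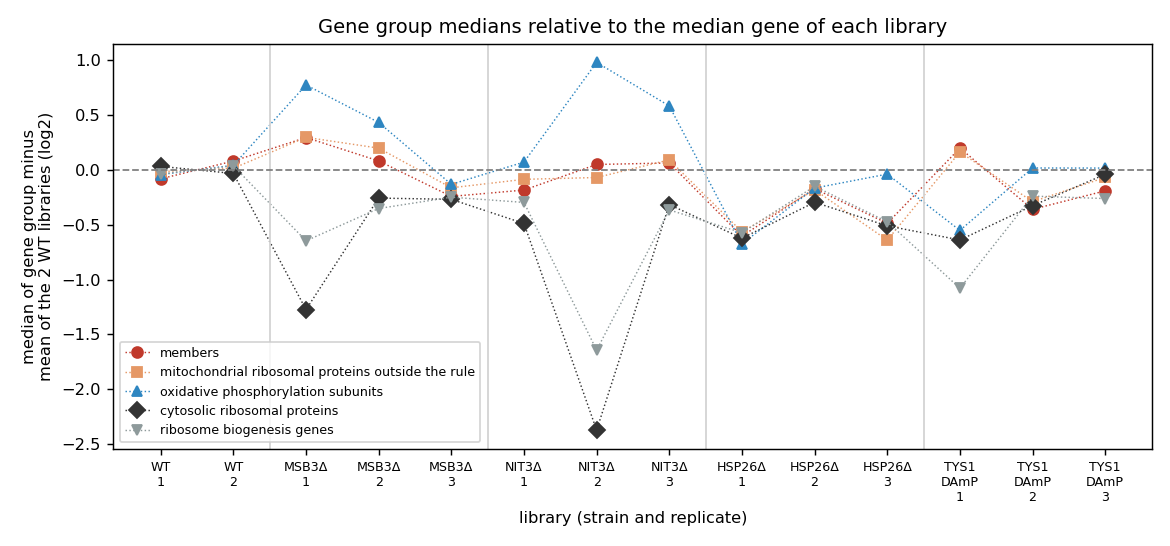
Points give the median of each gene group in each library, relative to the median gene of that library and to the mean of both WT libraries (log2). The members and the 13 mitochondrial ribosomal proteins outside the rule stay close together, while cytosolic ribosomal proteins and ribosome biogenesis genes drop far below in NIT3Δ replicate 2.

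A property of the libraries moved with the members. The slope of centred expression on log2 coding length over all genes ran from -0.09 in MSB3Δ replicate 1 to 0.18 in HSP26Δ replicate 1, and over the 14 libraries it correlated with the median member at -0.82: where short genes read low, so did the members, which are short. After a linear adjustment of each library for coding length, the strain means of the median member were 1.13 in HSP26Δ, 1.35 in TYS1 DAmP, 1.44 in WT, 1.49 in MSB3Δ and 1.495 in NIT3Δ, so HSP26Δ stayed lowest with a smaller distance. In HSP26Δ the fold changes of the members had a rank correlation with coding length of 0.34.

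Single members could be set against the profile of the group. For each gene averaging 10 FPKM or more, the correlation was taken with the median of the members, leaving the gene itself out. Members had a median r of 0.81, and 38 of 66 (57.6%) were over 0.8, against a median of -0.01 and 61 of 5175 (1.18%) among other genes. After subtracting the mean of each strain the median of the members was 0.78, so the likeness was also present between replicates of a strain. After the length adjustment it was 0.72.

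The member nearest to the group was MRPL24, the large-subunit protein bL28, at r = 0.97, followed by RSM28 and MRPL35 of the small and the large subunit. MRPL24 read 94.5 and 99.1 FPKM in WT, 162, 128 and 89.6 FPKM in MSB3Δ, 106, 167 and 120.6 FPKM in NIT3Δ, 75.1, 99.3 and 73.1 FPKM in HSP26Δ and 135, 85.7 and 76.6 FPKM in TYS1 DAmP. Its NIT3Δ libraries were above WT, and the other mutants overlapped with it. The least like were MRPL3, a large-subunit protein related to ribonuclease III, at 0.27, RSM26 at 0.34, RSM22 at 0.36 and MRP8 at 0.38. The 2 members without the Puf3 element were among the 4 least like the group, whereas MRPL3 and RSM26 carry it.

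Among genes outside the rule, the 5 most like the members were AIM36 (r = 0.97), a mitochondrial protein of unknown function, MHR1 (0.94), which is both a recombination protein and a large-subunit ribosomal protein, RRF1 (0.94), the mitochondrial ribosome recycling factor, COA1 (0.94), an assembly factor of cytochrome c oxidase, and MZM1 (0.93), an assembly factor of the cytochrome bc1 complex. All 5 carry the Puf3 element, as did 22 of the 25 most like genes. Of the 25, 9 were in the lists of mitochondrial translation and transcription genes used here. These lists do not cover all genes of mitochondrial proteins, and AIM36, COA1 and MZM1 are outside them. Over all other genes, the 732 with the element had a median r of 0.20 and the 4438 without it -0.04. These values are descriptions over the same 14 libraries.

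**Figure D4:**
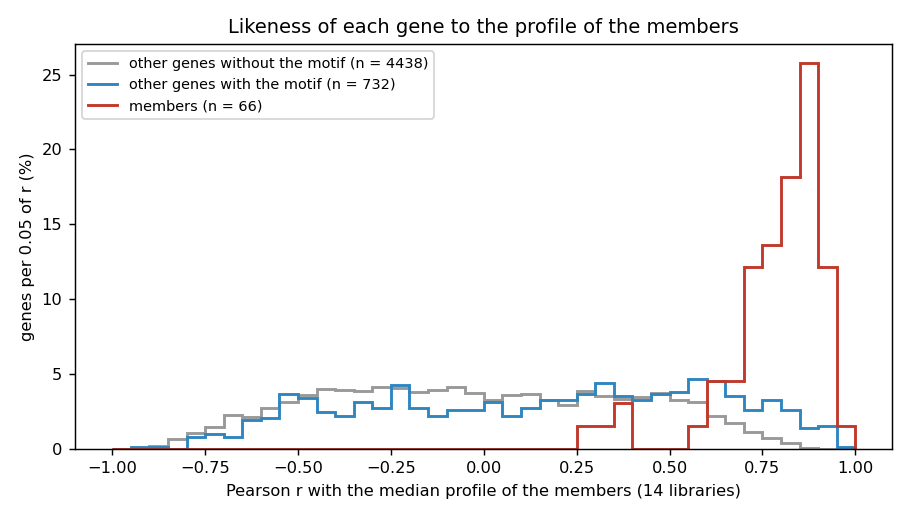
Lines give the percentage of genes per 0.05 of Pearson r between each gene and the median profile of the members over 14 libraries, for the 66 members (red), 732 other genes with the Puf3 element (blue) and 4438 without it (grey). Members pile up near a median of 0.81, while both other groups spread over the whole axis, with medians of 0.20 and -0.04.

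In MSB3Δ the members were mostly a little above WT. The median log2 fold change was 0.31 against 0.18 for all genes tested, and 52 of 66 members were above that median. The fold change, here and below, is on the log2(FPKM + 1) scale. The rule for a call asked for an unadjusted p under 0.05 and a fold of more than 1.5 (higher) or less than 0.7 (lower). By this rule 1 member, MRP8, was called higher, where 3.93% of all genes were, and none lower, where 0.559% were. No member had an adjusted p under 0.05 in limma (the smallest was 0.652), against 0.0175% of all genes. At an unadjusted p under 0.05 stood 2 higher members, MRP8 and MRP13, against 5.52% of all genes, and no lower one, against 0.925%. In 15 members all 3 MSB3Δ libraries were above both WT libraries, against 26.1% of all genes, and in none were they all below, against 8.08%.

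MRP8 read 358 and 360.2 FPKM in WT, 812, 569 and 500.1 FPKM in MSB3Δ, 456, 1335 and 624 FPKM in NIT3Δ, 517, 467 and 501 FPKM in HSP26Δ and 840.5, 518 and 545 FPKM in TYS1 DAmP. Every mutant library was above both WT libraries. Its log2 fold change was 0.46 (SE 0.15) in HSP26Δ, 0.79 (SE 0.24) in TYS1 DAmP, 0.77 (SE 0.25) in MSB3Δ and 1.01 (SE 0.46) in NIT3Δ, the largest of the 66 in each, with adjusted p of 0.274, 0.601, 0.652 and 0.563 in limma. All 4 comparisons rest on the same WT pair.

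MRP20, the large-subunit protein uL23 near the exit of the peptide tunnel, followed in MSB3Δ. It read 99.2 and 93.8 FPKM in WT and 208, 135 and 109 FPKM in MSB3Δ, with no overlap and a log2 fold change of 0.59 (SE 0.29, adjusted p = 0.652 in limma). MRPL28 (mL40) came next at 0.57 (SE 0.35), and its lowest MSB3Δ library, at 126 FPKM, was between the WT libraries at 118 and 138 FPKM. The smallest values belonged to MRP2 (uS14) at -0.10, MRPL20 (mL58) at -0.06 and MRP21 (bS21) at -0.04, all smaller than their standard errors. The count of higher calls rested on MSB3Δ replicate 3: without it 18 members were called higher, where 907 of 5727 genes were. Without MSB3Δ replicate 1 no member was, where 142 of 5727 genes were. With each library centred on its median no member was called, where 132 of 5727 genes were called higher and 134 lower.

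In NIT3Δ the members moved like the median gene, at a median log2 fold change of 0.32 against 0.28, with 38 of 66 above that value. No member was called higher, against 4.31% of all genes, none was called lower, against 0.506%, and none had an adjusted p under 0.05 in limma, with 0.563 as the smallest, against 0.0175%. At an unadjusted p under 0.05 no member was higher, against 4.52%, and none lower, against 0.524%. In 33 members the 3 NIT3Δ libraries were above both WT libraries, against 38.6% of all genes, and in none below, against 9.57%. After MRP8 the largest values were those of MRPS5, the small-subunit protein uS5, at 0.69 (SE 0.33) and MRPL16, the large-subunit protein uL16, at 0.65 (SE 0.31). MRPS5 read 81.9 and 90.5 FPKM in WT and 101, 208 and 128 FPKM in NIT3Δ, all above WT but 1 library far above the rest. The smallest were MRPL20 at -0.20, MRP2 at -0.16 and RSM26, a small-subunit protein related to superoxide dismutase, at -0.06. Without NIT3Δ replicate 1, 6 of 66 members were called higher, where 440 of 5727 genes were.

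In HSP26Δ the members were lower than the median gene almost throughout. The median log2 fold change was -0.30 against 0.08 for all genes, and 63 of 66 members were below that value, the exceptions being MRP8, MRPL16 and MRPL22. The shift was similar in the large (-0.31) and the small subunit (-0.30). In 21 members all 3 HSP26Δ libraries were below both WT libraries, against 13.2% of all genes, and in 1, MRP8, they were above, against 27.6%. By the thresholds 1 member, MRPL15, was called lower, where 2.41% of all genes were, and none higher, where 5.67% were. None had an adjusted p under 0.05 in limma (smallest 0.274), against 0.0349% of all genes. At an unadjusted p under 0.05 stood 2 lower members, MRPL15 and the small-subunit protein MRPS35, against 4.07%, and 1 higher member, MRP8, against 11.5%.

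MRPL15, the mitochondria-specific large-subunit protein mL57, read 117 and 118 FPKM in WT, 139.5, 122 and 96.9 FPKM in MSB3Δ, 116, 139 and 138 FPKM in NIT3Δ, 61.5, 96.4 and 74.2 FPKM in HSP26Δ and 135, 98.6 and 104 FPKM in TYS1 DAmP. The HSP26Δ libraries were below WT, whose 2 libraries were nearly equal, and the log2 fold change was -0.62 (SE 0.20, adjusted p = 0.277 in limma). MRPL50, the large-subunit protein bL9, had the lowest value of all at -0.77 (SE 0.41), but its HSP26Δ libraries, at 118, 353 and 238 FPKM, overlapped with WT at 344 and 393 FPKM. RSM19 read 504.5 and 498 FPKM in WT and 341, 439 and 231 FPKM in HSP26Δ, without overlap, at -0.62 (SE 0.27, adjusted p = 0.321).

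The HSP26Δ counts rested on single libraries. Without HSP26Δ replicate 2, the one nearest to WT, 20 of 66 members were called lower, where 394 of 5727 genes were. In this fit 6 members had an adjusted p under 0.05 in limma, and 468 of the 5727 genes had one. Without HSP26Δ replicate 1 or 3 no member was called, where 96 and 92 of 5727 genes were called lower and 241 and 321 higher. The members' median minus that of all genes was -0.38 and stayed between -0.49 and -0.26 when any 1 library was left out. With libraries centred on their median 7 members were called lower, where 293 of all genes were. With the length adjustment 3 were, where 207 of all genes were.

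In TYS1 DAmP the members were close to WT, at a median log2 fold change of -0.01 against 0.07 for all genes, with 46 of 66 below that value. MRP8 alone was called higher, where 3.34% of all genes were, and none was called lower, where 1.64% were, and no adjusted p was under 0.05 in limma (smallest 0.601), against 0.0873% of all genes. At an unadjusted p under 0.05 stood MRP8, against 5.03% of all genes that were higher, and no lower member, against 2.71%. MRP8 was the only member with all mutant libraries above WT (20.4% of all genes) and MRPS16, the small-subunit protein bS16, the only one with all below (12.4%). MRPS16 read 332 and 299 FPKM in WT and 270.2, 266 and 237 FPKM in TYS1 DAmP, at -0.29 (SE 0.15, adjusted p = 0.650 in limma). The largest values after MRP8 were those of MRP10, a small-subunit protein with cysteine motifs, and MRP49, both at 0.27, and the smallest were MRPL50 at -0.48, MRP21 at -0.35 and MRPL39 at -0.32. TYS1 DAmP replicate 1 stood above the others in the median member. Without it 5 members were called lower, where 104 of 5727 genes were, and none by the thresholds higher, where 144 were. In this fit 7 members had an adjusted p under 0.05 in limma, among them MRP21, MRPL50 and MRP8, and 180 of the 5727 genes had one. Without WT replicate 1 or 2 no member was called, where 104 and 89 of 5727 genes were called higher and 26 and 49 lower.

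**Figure D5:**
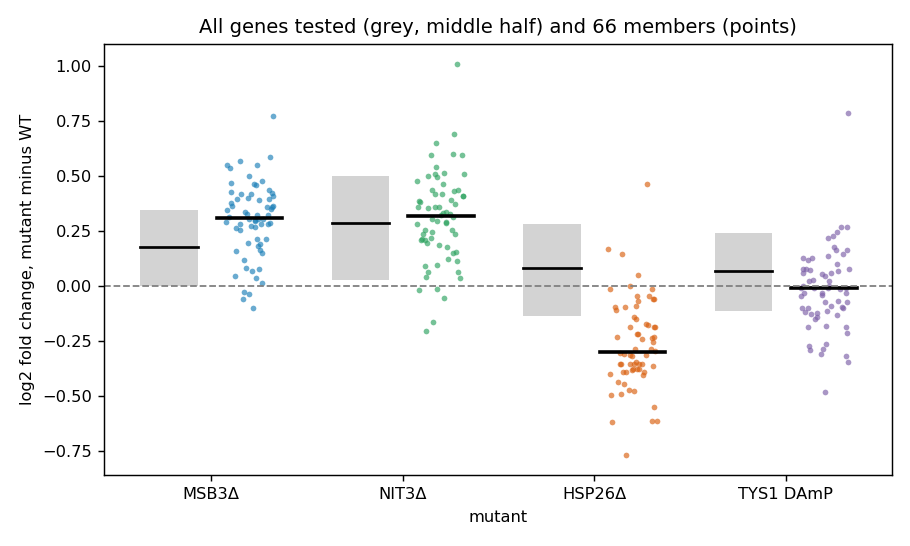
Points are log2 fold changes of the 66 members in each mutant against WT, with a black bar for their median, beside grey boxes for the middle part (25th to 75th percentile) of the 5727 genes tested, with a bar for their median. The members' medians are 0.31, 0.32, -0.30 and -0.01, and the single point on top in each mutant is MRP8.

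A test over all 5 strains in 1 fit gave 9 members with an unadjusted p under 0.05, against 5.06% of all genes, and none with an adjusted p under 0.05, against 0.157% (limma F test). The 5 with the smallest p were MRPL4 (uL29), MRP4 (uS2), MRPL15, MRPS9 (uS9) and MRPL19 (uL11), all with a bacterial counterpart but MRPL15. MRP4 read 92.9 and 103 FPKM in WT, 146, 122 and 104 FPKM in MSB3Δ, 116, 145 and 112 FPKM in NIT3Δ, 89.3, 74.7 and 66.2 FPKM in HSP26Δ and 112, 102 and 80.8 FPKM in TYS1 DAmP. In FPKM, MSB3Δ and NIT3Δ were above WT, HSP26Δ below it, and TYS1 DAmP overlapped. With each library set to its own median gene, MSB3Δ and NIT3Δ overlapped with WT too.

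Setting the mutants against each other, a comparison added after the values had been seen, leaves the small WT group out of the contrast. All 66 members were higher in MSB3Δ than in HSP26Δ, against 61.7% of all genes, with a median difference of 0.57 on the log2 scale against 0.08 for all genes, and 26 were called higher, where 2.69% of all genes were, and none lower, where 1.71% were. All 66 were also higher in NIT3Δ than in HSP26Δ, against 71.6% of all genes, with a median of 0.59 against 0.17, and 27 were called higher, where 6.69% of all genes were, and none lower, where 1.8% were. No adjusted p was under 0.05 in either (smallest 0.633 and 0.437 in limma), against 0.0349% of all genes in each. With libraries centred on their median the calls were 14 and 9, against 2.1% and 3.91% of all genes. With the length adjustment they were 3 and 5, against 1.29% and 3.39%. These counts, too, rested on single libraries. With 1 library left out at a time, calls of MSB3Δ over HSP26Δ ranged from 0 (without MSB3Δ replicate 1) to 49 (without MSB3Δ replicate 3). Over all genes 0.506% and 9.03% were called higher in these 2 fits. Without HSP26Δ replicates 3, 1 and 2 the calls were 3, 15 and 42, against 1.01%, 1.64% and 4.24% of all genes. Calls of NIT3Δ over HSP26Δ ranged from 4 (without NIT3Δ replicate 2) to 38 (without HSP26Δ replicate 2), against 1.08% and 6.08% of all genes. Without HSP26Δ replicates 3 and 1 they were 6 and 15, against 3.3% and 4.57%. The direction stayed the same in at least 65 members in each of these fits, and no adjusted p was under 0.05. The contrasts share the HSP26Δ libraries.

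The remaining contrasts held fewer calls. All 66 members were lower in HSP26Δ than in TYS1 DAmP, where 53.8% of all genes were higher, with a median of -0.25 against 0.02 for all genes, but 10 were above 0 after the length adjustment and 22, 14 and 9 without TYS1 DAmP replicate 1, HSP26Δ replicate 1 or HSP26Δ replicate 3. MRPL15, at -0.55 (SE 0.20), and RSM19, at -0.66 (SE 0.30), were called, where 0.978% of all genes were called lower, and neither was with the length adjustment. With 1 library left out at a time the count ranged from 0, without TYS1 DAmP replicate 1 or HSP26Δ replicate 1, to 4, without HSP26Δ replicate 2. In the fit with 4, 1.34% of all genes were called lower. MRPS5, at 0.72 (SE 0.28), and MRPL6 (uL6), at 0.69 (SE 0.31), were called higher in NIT3Δ than in TYS1 DAmP, where 3.37% of all genes were. These 2 calls became 0 with median centring and 1 with the length adjustment. They ranged from 0, without NIT3Δ replicate 2 or TYS1 DAmP replicate 3, to 12, without TYS1 DAmP replicate 1. In the fit with 12, 4.44% of all genes were called higher. No member had an adjusted p under 0.05 in either contrast (smallest 1 and 0.546 in limma). Members were higher than in TYS1 DAmP in 65 cases in MSB3Δ, against 68.8% of all genes, and in 64 cases in NIT3Δ, against 75.3%, while MSB3Δ and NIT3Δ split them, with 33 higher in MSB3Δ against 33.3% of all genes. No member was called between MSB3Δ and TYS1 DAmP, where 1.13% of all genes were called higher and 1.41% lower, or between MSB3Δ and NIT3Δ, where 0.192% were higher and 0.506% lower.

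The rest of the mitochondrial translation apparatus was read from the same fits. The 13 ribosomal proteins outside the rule had a median of -0.39 in HSP26Δ, where that of the members was -0.30, with no call in any mutant. Among them was NAM9, the small-subunit protein uS4, at -0.13 (SE 0.14), and VAR1, the ribosomal protein encoded in mitochondrial DNA, was not analysed here. The 13 mitochondrial synthetases had a median of 0.08 in HSP26Δ, equal to that of all genes, and the 8 translation factors -0.01. Nearly all of both groups carry the Puf3 element. Their genes are longer, with median coding lengths of 1611 and 1626 bases, against 706.5 bases in members. The elongation factors TUF1 and MEF1 were at -0.31 (SE 0.19) and 0.06 (SE 0.15) there, and MSY1, the mitochondrial tyrosyl-tRNA synthetase, at -0.23 (SE 0.22) there and -0.16 (SE 0.22) in TYS1 DAmP, the strain with less of the cytosolic enzyme. The differences between these lists were not tested.

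Called genes were few in these lists. Over all genes the same rule called 4.31% higher in NIT3Δ, and 2.41% lower and 5.67% higher in HSP26Δ. In NIT3Δ 2 of 8 translation factors were called higher, with AIM23, the initiation factor 3, the largest at 0.78 (SE 0.31), and 1 of 13 synthetases, MSF1 for phenylalanine, at 0.63 (SE 0.25). In HSP26Δ 1 of 16 translational activators was called lower, CBP6 of cytochrome b at -0.57 (SE 0.16), and 1 of 7 genes of mitochondrial transcription and RNA turnover higher, RPM2 of mitochondrial RNase P at 0.76 (SE 0.25). None of 9 assembly genes was called in any mutant. No gene of these lists had an adjusted p under 0.05 in limma.

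The respiratory chain and the cytosolic ribosome were read for comparison. Oxidative phosphorylation subunits had a median of 0.48 in MSB3Δ with 1 of 35 called higher, and 0.77 in NIT3Δ with 3 called higher, led in both by NDI1, the internal NADH dehydrogenase, at 0.67 and 1.01. CYC1, cytochrome c, was the 1 called lower in HSP26Δ at -2.15 (SE 0.27) and in TYS1 DAmP at -1.54 (SE 0.58). Cytosolic ribosomal proteins had medians of -0.31, -0.22, -0.40 and -0.75 in HSP26Δ, TYS1 DAmP, MSB3Δ and NIT3Δ, with 12, 8, 6 and 0 of 136 called lower, led by RPL18B, RPS31 and RPL23B, where 2.41%, 1.64%, 0.559% and 0.506% of all genes were. The NIT3Δ value rested on replicate 2, without which it was -0.26. Ribosome biogenesis genes had medians of -0.31, -0.47, -0.32 and -0.52 in the same order, with 7, 9, 5 and 2 of 60 called lower, led by CGR1 and FYV7, 2 factors of rRNA processing, and the NIT3Δ value was -0.23 without replicate 2. The NIT3Δ value of the oxidative phosphorylation subunits was 0.39 without replicate 2. In MSB3Δ, replicate 1 stood apart, with a cytosolic median 5.73 above the median gene, against 6.74 and 6.73 in replicates 2 and 3. Its oxidative phosphorylation subunits stood at 3.13, against 2.79 and 2.23. The MSB3Δ lists were not refitted without replicate 1.

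The targeted genes were lower in the strains named for them. MSB3, NIT3 and HSP26 were at 0.0067, 0.11 and 0.10 FPKM in their deletion strains, and TYS1 was at 13.7% of its WT mean. This was a larger fall of TYS1 than the paper reports for its DAmP strain by RT-qPCR. Library depth, judged by how far apart the lowest values of short genes lay, differed by at most 1.20-fold, with 77.6% of 1132 such values within 0.15 of a whole number of reads.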

How the data were processed

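The authors deposited 1 FPKM value for each of 5886 genes in 14 libraries, and nothing else was used. Per the submitters' processing notes, HISAT2 2.1.0, Bowtie2, RSEM 1.3.1 and DESeq2 1.4.5 were run on build R64. Their roles and the scaling between libraries are not given in the sources used here. FPKM is a share of each library, so large changes in abundant messages shift all other values.

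Genes averaging 1 FPKM or more were kept (5727, all 66 members included) and log2(FPKM + 1) was fitted with limma 3.58.1 (R 4.3.3, variance trend, robust estimation) over the whole table for each mutant and the 2 WT libraries. p-values were adjusted by Benjamini and Hochberg over all genes tested. The sample titles number the libraries as biological replicates but do not say how the cultures were kept apart. The p-values measure the spread between these libraries. Data were simulated for 3 against 2 libraries and 5727 genes, with independent noise of the same spread in every gene. There 96% of genes changed by 1 and 100% of those changed by 3 on the log2 scale were called, with 1.83% of unchanged genes. In the real libraries genes shift together and differ in spread, so these shares do not give the power in the data.

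Of the gene names, 5868 matched R64 directly, 9 through older names, and 9 did not. Motifs and windows were read from the R64 genome of RefSeq. Figures and descriptions used Python 3.11.15, pandas 2.3.3, NumPy 2.4.6 and matplotlib 3.10.9.

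Members and lists were chosen with earlier results of these data known. Genes were named by rule: the 3 highest and 3 lowest members, the 3 largest and smallest fold changes per mutant, the 5 smallest p over strains, the 3 most and least like the group, MRP8 and RSM22, the 5 most like other genes, NAM9, VAR1, TUF1, MEF1, MSY1 and the extreme called genes of each list. MRP13, MRPS35, MRPS16, MRPL6 and PUF3 were added after their values were seen. Alternatives were a pseudocount of 0.1, no filter or a minimum of 10 FPKM, median centring, median-ratio scaling, 1 fit over all strains, a replicate block and leaving out each library. The length adjustment, the contrasts between mutants with each library left out, the lists without NIT3Δ replicate 2 and the other motif windows were added after seeing the data.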

Additional observations from a re-analysis of the deposited data

Results flagged for a closer look

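In FPKM, 8 members had every NIT3Δ library above both WT libraries and every HSP26Δ library below both, against 1.59% of all genes. In 2 of these 8 every MSB3Δ library was above WT as well, against 0.454% of all genes for MSB3Δ with HSP26Δ. The reverse was seen in no member, against 0.21% and 0.297% of all genes. The comparisons share the WT and HSP26Δ libraries. Values are given for the 4 of these members that the rule for named genes picked. MRP4, the small-subunit protein uS2, did so in MSB3Δ, with a log2 difference of 0.68 to HSP26Δ (SE 0.19), and in NIT3Δ, with 0.69 (SE 0.19). MRPL40, the large-subunit protein uL24, read 42.5 and 43.8 FPKM in WT, 75.85, 54.9 and 45.2 FPKM in MSB3Δ, 49.75, 68.8 and 54.0 FPKM in NIT3Δ and 40.7, 32.6 and 35.2 FPKM in HSP26Δ, and differed from HSP26Δ by 0.66 (SE 0.22) in MSB3Δ and 0.65 (SE 0.22) in NIT3Δ.

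MRPS9 and MRPL19 did so in NIT3Δ, with MSB3Δ libraries overlapping WT, by 0.59 (SE 0.21) and 0.57 (SE 0.20). MRPS9 read 102 and 114 FPKM in WT, 121, 139 and 134 FPKM in NIT3Δ and 89.4, 93.2 and 78.1 FPKM in HSP26Δ. In limma the adjusted p of these differences was 0.633 and 0.711 against MSB3Δ and 0.437 for all 4 against NIT3Δ, so none passed. With each library set to its own median gene, the HSP26Δ libraries of these 4 members stayed below WT. Their NIT3Δ libraries then overlapped with WT, as did the MSB3Δ libraries of MRP4 and MRPL40. MRP4 stood at 1.08 and 1.21 in WT and at 1.19, 1.15 and 1.24 in NIT3Δ, and its lowest MSB3Δ library at 1.18.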

How the results depend on the processing

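The pseudocount and both filters changed no count of members called by over 1.5 times. Higher calls in MSB3Δ went from 1 to 0 with median centring, with median-ratio scaling and with 1 fit over all strains. There 132, 148 and 80 of 5727 genes were called higher. The fit over all strains changed higher calls from 0 to 2 in NIT3Δ, where those of all genes went from 247 to 552. It left 0 of 1 in TYS1 DAmP, where 142 of all genes were called higher. Lower calls in HSP26Δ went from 1 to 7 with median centring, 5 with median-ratio scaling and 3 with the length adjustment. Over all genes 293, 257 and 207 were called lower in these 3 settings. The length adjustment gave 1 lower call in TYS1 DAmP, where 126 of all genes were called lower. Leaving out 1 mutant library at a time gave 0 to 18 higher calls in MSB3Δ, 0 to 6 in NIT3Δ and 0 to 1 in TYS1 DAmP. Lower calls ranged from 0 to 20 in HSP26Δ and 0 to 5 in TYS1 DAmP. Over all genes the fits with the highest counts held 907, 440, 217, 394 and 104 such calls, in the same order. The members' median minus that of all genes kept its sign in MSB3Δ (0.04 to 0.24), HSP26Δ (-0.49 to -0.26) and TYS1 DAmP (-0.23 to -0.02) and not in NIT3Δ (-0.03 to 0.08). Over all genes, median centring turned 225 higher and 32 lower calls in MSB3Δ into 132 and 134, 247 and 29 in NIT3Δ into 126 and 113, 325 and 138 in HSP26Δ into 224 and 293, and 191 and 94 in TYS1 DAmP into 164 and 136. The cause was not tested.

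The labels give same-numbered replicates no more than a common number. Correlations of their deviations between WT and mutants ran from -0.28 to 0.15. With 2 WT libraries the deviations of one mirror those of the other, so these values cannot show whether same-numbered libraries were handled together. Same-numbered libraries of different mutants were not compared. The replicate number was also used as a block, which leaves the third mutant library without a partner. With it 19 members were called higher in MSB3Δ, 1 in NIT3Δ and 4 lower in HSP26Δ. Of the 5727 genes 955, 584 and 118 were called in the same way. In MSB3Δ 4 members had an adjusted p under 0.05 in limma, and 608 of the 5727 genes had one. Those of MRP8, MRP20 and MRPL28 were 0.0374, 0.0357 and 0.0255 in MSB3Δ. There MRP21, MRPL20 and MRP2 changed sign to 0.33, 0.056 and 0.10. Leaving out 1 library at a time moved them between -0.38 and 0.33, -0.17 and 0.056, and -0.29 and 0.10, and RSM26 in NIT3Δ between -0.19 and 0.20. Of 312 values for single members under these settings, 296 kept their direction and side of the threshold, 9 changed sign and 7 passed the threshold.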

Other observations

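The message of PUF3 itself was low in every library, between 8.69 and 20.4 FPKM, with its highest value in NIT3Δ replicate 2, and its log2 level had a correlation of 0.09 with the median member over the 14 libraries. It was looked up after the element had been found. Of the 25 genes outside the naming rule most like the members, POA1, YHR140W and PRM9 lacked the element.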
